A study of Mus musculus with 20 samples.

Results

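The endothelial marker genes described here are 10 genes whose transcripts mark the cells that line blood vessels: Pecam1, Cdh5, Kdr, Flt1, Tek, Tie1, Vwf, Emcn, Eng and Esam. They were taken from a fixed list of names and matched to the Ensembl identifiers of the count matrix. All 10 were found among the 55401 genes of the matrix, and all 10 were among the 13626 genes with enough counts to be tested. The RNA came from whole gastrocnemius (a calf muscle) of 20 C57BL/6 mice aged 24 months. Of these, 10 had drunk water with HK (Haenkenium, a standardised extract of the sage Salvia haenkei) at 0.5 mg per kg per day from 20 months of age on, that is for 4 months. The other 10 were untreated and drank plain water. Each group held 5 males and 5 females, and each was spread over both sequencing experiments, with 4 mice of each group in batch 1 and 6 in batch 2. No transgene was named for any of them.

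Endothelial cells form the inner wall of every vessel, and in skeletal muscle most of them sit in the capillaries that run along the fibres. Growth and survival of these cells depend on vascular endothelial growth factor (VEGF), which signals through the receptor tyrosine kinase KDR (VEGFR2), while FLT1 (VEGFR1) binds the same ligand and acts largely as a decoy. Angiopoietins act through the receptor TEK (TIE2) together with its partner TIE1 and keep the vessel quiet. VE-cadherin (Cdh5), PECAM1 and ESAM hold neighbouring cells together, endoglin (Eng) is a co-receptor for ligands of the TGF-beta and BMP family, von Willebrand factor (Vwf) captures platelets, and endomucin (Emcn) is a mucin of capillary and venous endothelium.

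The promoters of the receptor genes are shown because these genes are set against each other below, and because binding sites of ETS factors are a known feature of endothelial promoters. Each window runs from 250 bases before the start of the transcript to 50 bases after it, 5′ to 3′ on the strand of the gene, as given by RefSeq on build GRCm38.p6. The windows are chr5:75978406-75978705 (minus strand) for Kdr, chr5:147725962-147726261 (minus strand) for Flt1, chr4:94739039-94739338 (plus strand) for Tek, chr4:118489800-118490099 (minus strand) for Tie1 and chr2:32646345-32646644 (plus strand) for Eng. Capitals mark the letters CAGGAA or CCGGAA, the cores of many ETS sites, read on either strand (TTCCTG and TTCCGG are their reverse complements).
Kdr: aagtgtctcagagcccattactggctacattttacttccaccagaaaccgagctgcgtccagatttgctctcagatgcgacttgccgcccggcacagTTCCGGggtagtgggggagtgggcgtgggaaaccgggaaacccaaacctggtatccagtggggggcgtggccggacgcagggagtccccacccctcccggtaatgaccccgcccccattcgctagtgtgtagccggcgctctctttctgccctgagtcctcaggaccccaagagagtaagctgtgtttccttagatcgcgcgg
Flt1: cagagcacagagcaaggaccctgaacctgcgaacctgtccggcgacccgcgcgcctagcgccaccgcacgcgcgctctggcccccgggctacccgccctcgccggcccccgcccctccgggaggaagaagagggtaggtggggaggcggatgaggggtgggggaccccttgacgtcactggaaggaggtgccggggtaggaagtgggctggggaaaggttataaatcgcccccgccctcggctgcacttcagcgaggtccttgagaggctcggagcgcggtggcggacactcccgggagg
Tek: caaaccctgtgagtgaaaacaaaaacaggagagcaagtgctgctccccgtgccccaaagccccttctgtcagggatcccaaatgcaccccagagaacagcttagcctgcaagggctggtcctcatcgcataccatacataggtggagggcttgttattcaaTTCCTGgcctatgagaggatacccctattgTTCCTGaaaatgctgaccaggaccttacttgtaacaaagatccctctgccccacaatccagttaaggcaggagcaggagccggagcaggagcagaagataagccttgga
Tie1: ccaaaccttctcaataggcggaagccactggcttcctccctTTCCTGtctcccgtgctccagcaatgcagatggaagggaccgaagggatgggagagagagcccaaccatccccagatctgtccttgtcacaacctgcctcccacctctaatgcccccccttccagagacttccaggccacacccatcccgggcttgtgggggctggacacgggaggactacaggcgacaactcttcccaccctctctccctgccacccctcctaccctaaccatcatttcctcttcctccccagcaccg
Eng: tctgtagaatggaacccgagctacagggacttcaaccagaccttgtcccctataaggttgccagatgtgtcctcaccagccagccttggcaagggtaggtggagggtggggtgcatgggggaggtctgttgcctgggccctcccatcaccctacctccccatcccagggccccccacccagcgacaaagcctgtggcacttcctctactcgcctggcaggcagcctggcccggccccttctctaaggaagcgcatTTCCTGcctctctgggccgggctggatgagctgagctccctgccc
With the first base of the transcript counted as 1 and the base before it as -1, the match lay at positions -153 to -148 in Kdr, -209 to -204 in Tie1 and 6 to 11 in Eng. Tek held 1 match at -89 to -84 and another at -59 to -54, and Flt1 held none. Other forms of ETS sites were not searched. Of the 6 members with a promoter in the table (these 5 and Emcn), 5 held a match, beside 41.4% of all 32851 promoter windows of this length. The letters AGATAA, a core of GATA sites, occurred in Tek alone among the 6, at positions 37 to 42, and in 11.2% of all windows. ACGTG, 1 form of the core of hypoxia response elements, occurred in none of the 6 and in 19.6% of all windows. Other forms of this core, such as GCGTG, were not searched, and the Kdr window above holds GCGTG. Pecam1, Cdh5, Vwf and Esam were not matched. A match is a description of the letters and not evidence of binding.

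Depth and labels bear on all values. Libraries held between 13900180 and 30469644 counts. Xist counts were 2434 to 6876 in the females and at most 15 in the males, and Ddx3y counts were 761 to 2916 in the males and at most 1 in the females, so that the sex labels matched the libraries. The summed level of 6 genes of all muscle fibres was 65843 to 84056 CPM (a count relative to the size of its library, counts-per-million, with library sizes scaled by the TMM method of edgeR). No pair of mice of the same group and batch agreed within sampling noise over all genes, with a chi-square per degree of freedom of at least 8.06. Counts of the members ran from 61 (Emcn) to 1683 (Cdh5) per mouse, which put the counting error of a single value between 2.44% and 12.8%.

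Per length, Cdh5 was the most abundant member. Levels of different genes were compared as RPKM (CPM divided by the exon length in kilobases), given as mean ± SD over the 20 mice. Cdh5 reached 11.5 ± 3.18 RPKM, followed by Eng with 8.46 ± 2.88, Pecam1 with 7.33 ± 2.04 and Esam with 6.48 ± 1.91. The 4 receptor kinases came next and lay close to each other, with Tie1 at 4.14 ± 0.950 RPKM, Flt1 at 4.07 ± 0.992, Kdr at 3.49 ± 1.25 and Tek at 3.35 ± 0.856. Vwf (1.55 ± 0.556 RPKM) and Emcn (1.30 ± 0.244 RPKM) were lowest. Only 2 steps of this order held in each mouse: Esam lay above Tie1 and Tek above Vwf in 20 of 20. Cdh5 exceeded Eng in 18 mice, Pecam1 exceeded Esam in 15, and Eng exceeded Pecam1 and Flt1 exceeded Kdr in 14 each. Tie1 against Flt1, Kdr against Tek, and Vwf against Emcn stood in this order in 12 of 20 mice each, so that these neighbours did not differ beyond their spread. The counts pool both batches. For Kdr to Flt1 the mean log2 ratio was 0.12 ± 0.44 (SD) in batch 1 and -0.54 ± 0.52 (SD) in batch 2.

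**Figure D1:**
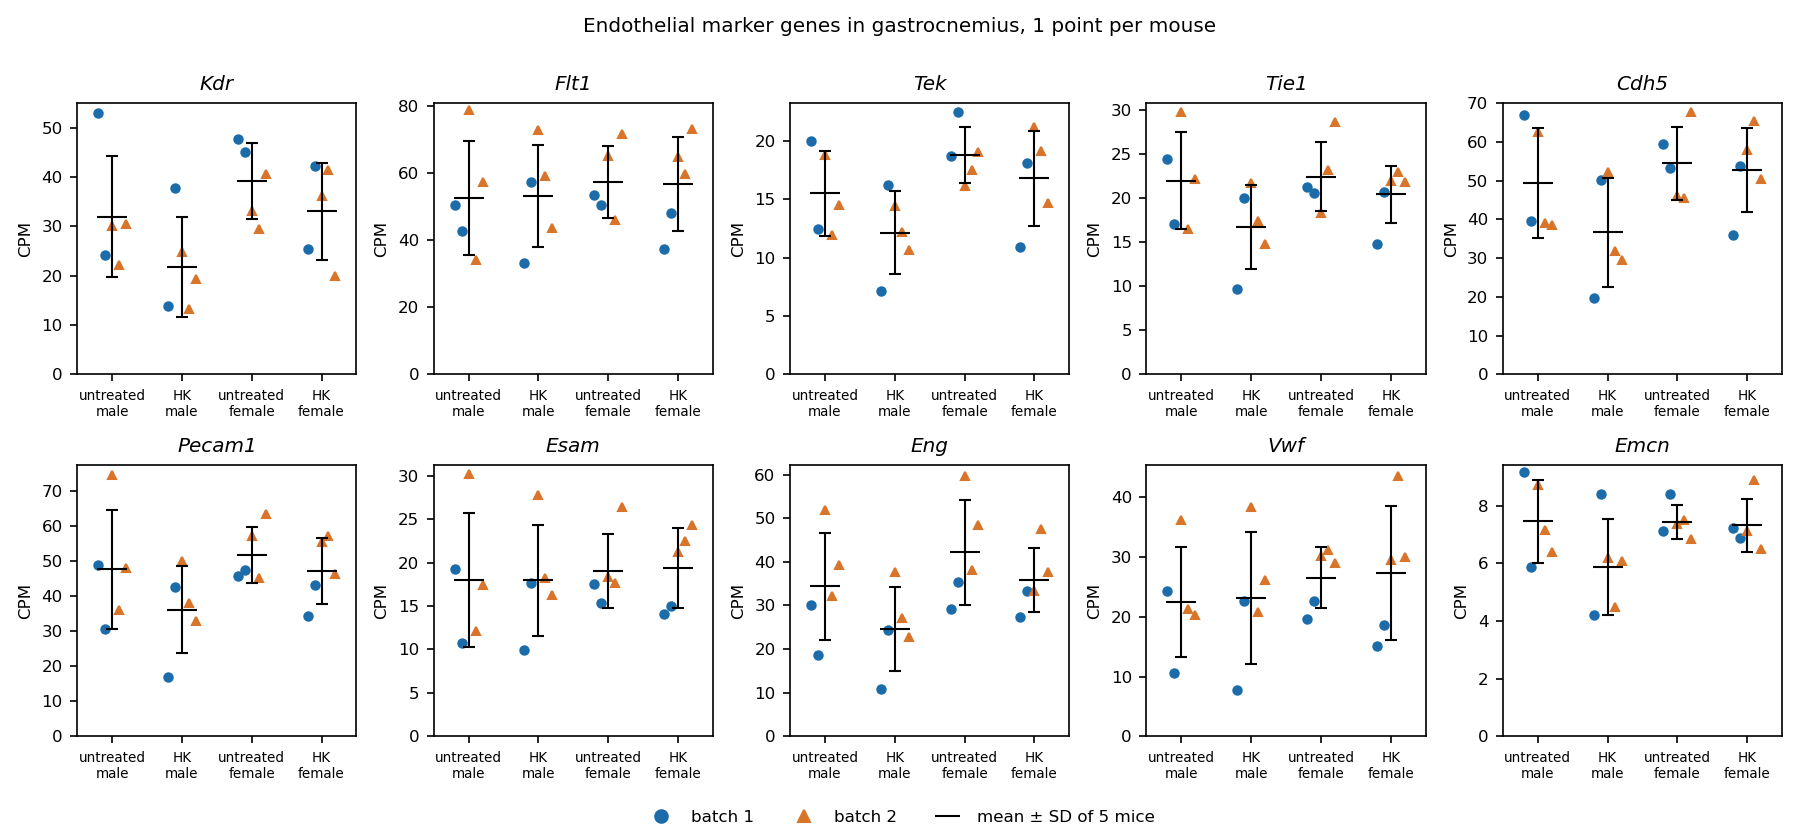
CPM of each member (y axis, from 0) in the 4 groups of 5 mice, 1 point per mouse, circles for batch 1 and triangles for batch 2, with the mean and SD in black. HK male 1 holds the lowest value of 9 of the 10 genes, and the groups overlap for every gene.

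The members varied together from mouse to mouse. Their summed level was 132.8 CPM in HK male 1, the lowest of the 20 mice, and 421.6 CPM in untreated male 3, the highest. HK male 1 held the lowest value of 9 members, and only Kdr was lower in another mouse (HK male 4). The highest values were spread over 6 mice, with untreated male 3 highest for Pecam1, Flt1, Tie1 and Esam. The SD of log2 CPM, after removal of batch and sex, lay between 0.27 (Emcn) and 0.48 (Kdr), while the median gene had 0.21. Kdr thus varied more than 86.6% of all genes and Emcn more than 62.1%.

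HK was compared with untreated mice to see how far the endothelial genes followed the treatment. All 10 members had a fitted log2 fold change below 0, with a median of -0.25, against 0.00 over all genes, of which 49.0% were below 0. None of the 10 passed the threshold of an adjusted p under 0.05 in the quasi-likelihood test of edgeR, fitted with terms for batch and sex. The background was the same, since 0% of the 13626 genes were called by this test, while 379 genes (2.78%) were higher and 456 (3.35%) lower at an unadjusted p under 0.05. DESeq2 called 7 genes and limma voom 0, and neither called a member. At an unadjusted p under 0.05, 2 members (Kdr and Eng) were lower and none higher. In RNA of whole muscle, fewer endothelial cells and less RNA of these genes per cell cannot be told apart. Vwf and Esam sat so near 0 that both changed sign when DESeq2 size factors replaced TMM, which left 8 of 10 below 0, and Esam also with DESeq2 and limma voom.

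The VEGF receptors are the first pair. Kdr, the signalling receptor (ENSMUSG00000062960, chr5:75932827-75978458), ranged from 22.3 to 53.1 CPM with a median of 31.8 in untreated mice and from 13.3 to 42.3 with a median of 25.1 in HK-treated mice. The fit gave a log2 fold change of -0.39 ± 0.19 (SE), an unadjusted p of 0.0498 and an adjusted p of 0.795 (edgeR). The ranges overlapped widely, and 4 HK-treated mice lay below the lowest untreated mouse. Flt1, the decoy receptor (ENSMUSG00000029648, chr5:147561604-147726011), ran from 34.2 to 78.6 CPM with a median of 51.9 without HK and from 33.1 to 73.1 with a median of 58.3 with it. Its log2 fold change was -0.01 ± 0.13 (adjusted p = 0.992, edgeR), and 4 of the 10 treated mice had less than the median of the controls in CPM, but 7 of 10 once batch and sex were removed. The soluble and the membrane form of FLT1 come from one gene and were counted together.

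Both Tie receptors had values of similar size below 0. For Tek (ENSMUSG00000006386, chr4:94739289-94874976), untreated mice ranged from 11.9 to 22.5 CPM with a median of 18.1. HK-treated mice ranged from 7.10 to 21.2 CPM with a median of 14.6, and 8 of 10 had less than the median of the controls. The log2 fold change was -0.26 ± 0.14 (unadjusted p = 0.0876, adjusted p = 0.805, edgeR). Tie1, the orphan partner of TEK (ENSMUSG00000033191, chr4:118471191-118490061), ranged from 16.5 to 29.8 CPM with a median of 21.7 in untreated mice. With HK it ranged from 9.67 to 23.0 CPM with a median of 20.4, and its log2 fold change was -0.27 ± 0.13 (unadjusted p = 0.0542, adjusted p = 0.795, edgeR). Of the untreated mice 4 lay above every HK-treated mouse for Tie1, and 3 HK-treated mice lay below every untreated one.

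Of the 3 genes that join endothelial cells, Pecam1 and Cdh5 had values below 0 and Esam lay near 0. Pecam1 (ENSMUSG00000020717, chr11:106654217-106750628) ran from 30.7 to 74.5 CPM with a median of 47.7 in untreated mice and from 16.9 to 57.2 with a median of 42.9 in HK-treated mice. Its log2 fold change was -0.27 ± 0.15 (unadjusted p = 0.0841, adjusted p = 0.805, edgeR). Cdh5, which encodes VE-cadherin (ENSMUSG00000031871, chr8:104101625-104144511), had nearly equal medians, 49.7 CPM in untreated and 50.3 CPM in HK-treated mice, with ranges of 38.4 to 67.7 and 19.6 to 65.4. The difference lay in the low values, since 4 HK-treated mice were below the lowest untreated mouse, and the log2 fold change was -0.24 ± 0.17 (adjusted p = 0.832, edgeR). Esam (ENSMUSG00000001946, chr9:37528078-37538319) had medians of 17.6 and 17.9 CPM, with ranges of 10.7 to 30.2 without and 9.88 to 27.8 with HK. Its log2 fold change was -0.00 ± 0.15 (adjusted p = 0.999, edgeR), and 1 HK-treated mouse lay below and none above all untreated mice.

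Endoglin had the lowest p of the members. Eng (ENSMUSG00000026814, chr2:32646595-32682669) ranged from 18.6 to 59.8 CPM with a median of 36.8 in untreated mice and from 10.9 to 47.4 with a median of 30.3 in HK-treated mice. Its log2 fold change was -0.35 ± 0.14 (unadjusted p = 0.0245, adjusted p = 0.795, edgeR), and 7 of 10 treated mice had less than the median of the controls. The exons of Eng share 61 bases with Fpgs on the opposite strand, and the use of strand in the counting is not given in the sources used here. Fpgs held 2445 counts in all mice together and Eng 12389. Vwf (ENSMUSG00000001930, chr6:125546774-125686679) did not follow Eng. It ranged from 10.6 to 36.2 CPM with a median of 23.4 in untreated mice and from 7.75 to 43.6 with a median of 24.4 in HK-treated mice, with a log2 fold change of -0.00 ± 0.18 (adjusted p = 0.999, edgeR). Emcn, the least abundant member (ENSMUSG00000054690, chr3:137341067-137432185), ranged from 5.87 to 9.16 CPM with a median of 7.26 without HK and from 4.21 to 8.88 with a median of 6.70 with it. Its log2 fold change was -0.18 ± 0.12 (adjusted p = 0.832, edgeR), and 8 of 10 treated mice had less than the median of the controls.

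**Figure D2:**
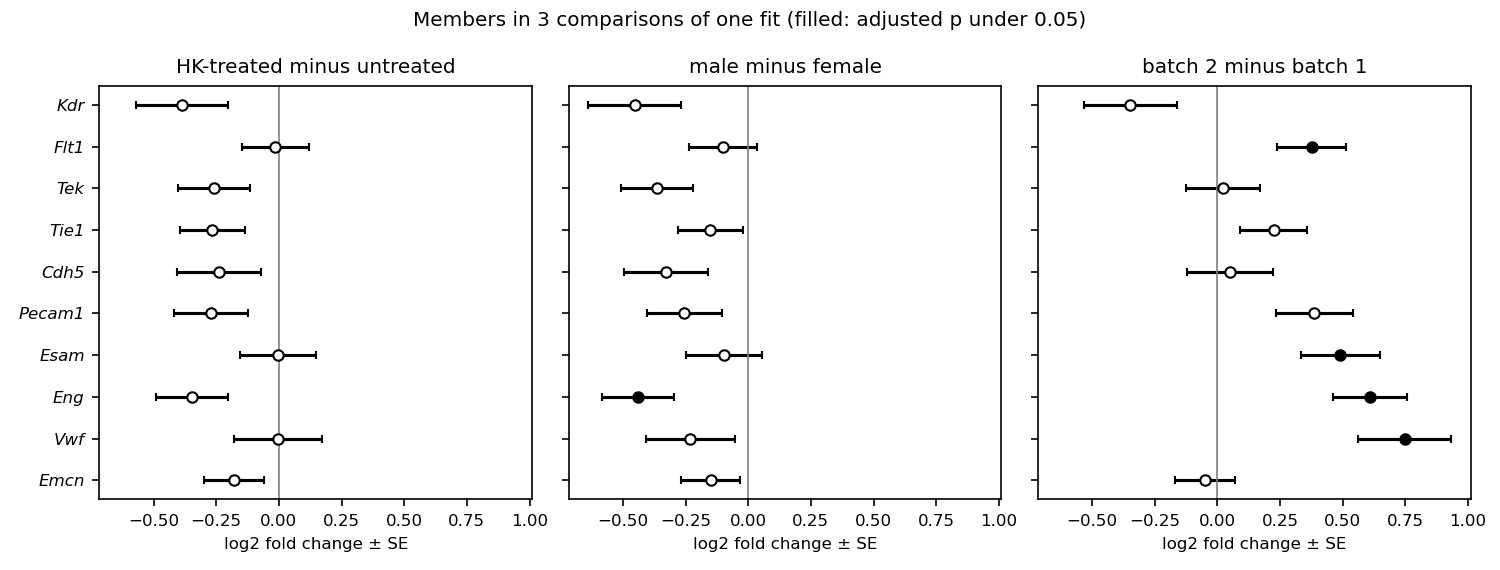
Log2 fold change ± SE (x axis) of the 10 members in 3 comparisons of the same fit over 20 mice, with filled points for an adjusted p under 0.05. No point is filled for HK, 1 (Eng) for sex and 4 (Flt1, Esam, Eng, Vwf) for batch.

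The size of the median depended on the mice and batches included. It was -0.31 in batch 1 alone and -0.13 in batch 2 alone, where Flt1, Vwf and Esam had values above 0. In males alone the median was -0.38 and in females alone -0.10. The interaction of treatment with sex was called for 0 of 10 members (edgeR, background 0% of 13800 genes), and none had an unadjusted p under 0.05, where 1.81% of all genes had one above 0 and 1.69% one below. That with batch was also called for 0 of 10 (edgeR, background 0% of 13800 genes), again with none at an unadjusted p under 0.05, beside 1.57% and 1.44% of all genes. The most negative estimate of treatment by sex was that of Cdh5 (log2 -0.38 ± 0.33), and the largest of treatment by batch were those of Vwf (0.42 ± 0.36) and Tek (0.39 ± 0.29). Without HK male 1 the median of the members was -0.16, and 7 of 10 remained below 0. Without untreated male 1 or untreated male 3 it was -0.18, again with 7 of 10 below 0. Without HK male 2 it was -0.32, with all 10 below 0 and 6 at an unadjusted p under 0.05 (edgeR). In that fit 542 of 13764 genes were lower and 431 higher at this p. No member had such a p without untreated male 1, untreated male 3 or HK male 5. In none of the 20 fits that left out 1 mouse was a member called.

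Other cell types were read from lists of marker genes, given here by their median log2 fold change beside the -0.25 of the members. Of 29 other endothelial genes 24 had values below 0 (median -0.18), of 9 capillary genes 9 (-0.15), of 11 arterial genes 10 (-0.17), and of 11 genes of pericytes and smooth muscle 10 (-0.22). Lymphatic genes (2 of 5 above 0, -0.10) and venous genes (3 of 6 above 0, -0.03) were split. Markers outside the vessels were also below 0, with 10 of 10 macrophage genes (-0.29), 7 of 7 genes of fibro-adipogenic progenitors (-0.28), 4 of 4 satellite cell genes (-0.14) and 7 of 7 slow fibre genes (-0.71). The satellite cell list shares Vcam1 with the venous list. Red cell genes (5 of 5, 0.47) and Schwann cell genes (5 of 5, 0.29) lay above 0. Fast fibre genes (5 of 7 above 0, 0.06), genes of all fibres (3 of 6, 0.03) and adipocyte genes (3 of 5, 0.05) lay on both sides of 0. Of 6 platelet genes 2 were tested (-0.25), and of 6 lymphocyte genes none had enough counts. No gene of any list was called.

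**Figure D3:**
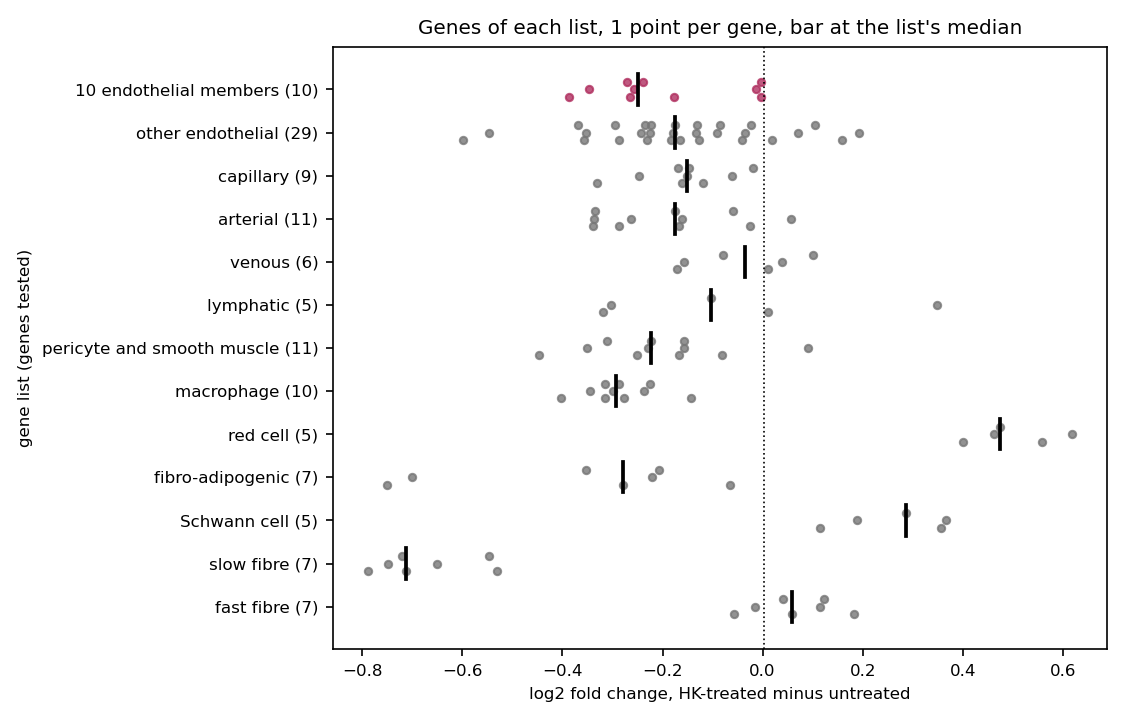
Log2 fold change of HK-treated against untreated mice (x axis) for each tested gene of 13 lists (y axis), with a bar at the median of the list and a dotted line at the median of all genes. The 10 members have a median of -0.25, between the other endothelial genes (-0.18) and the macrophage genes (-0.29), and slow fibre genes lie lowest (-0.71).

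The summed slow fibre level ranged from 808 to 6333 CPM in untreated and from 771 to 3662 CPM in HK-treated mice. It was 6333 CPM in untreated male 3, the mouse with the highest sum of the members. Without that mouse the slow fibre median was -0.24 in place of -0.71, and the median of the members -0.18 in place of -0.25. Summed macrophage markers ranged from 32.4 to 307 CPM without and from 22.3 to 246 CPM with HK, summed pericyte and smooth muscle markers from 502.3 to 697 and from 457 to 715 CPM, and summed red cell markers from 30.4 to 272 and from 58.3 to 403 CPM. None of the genes of these 4 lists was at 0 in all mice. Their part in the values of the endothelial genes was not tested.

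The partners of the members were read from further lists, each given by its gene of lowest p on either side of 0. Vegfa, the main ligand of KDR and FLT1, had 197 ± 47.6 CPM in untreated and 199 ± 39.8 CPM in HK-treated mice (SD, n = 10 each), with a log2 fold change of 0.03 ± 0.10. Pgf, a ligand of FLT1 alone, was at 0.984 ± 0.464 and 0.755 ± 0.323 CPM (-0.36 ± 0.25). Of the 10 genes of ligands, co-receptors and the receptor gene Flt4, 7 had values below 0, with a median of -0.06. Among 15 tested genes of the endoglin and BMP pathway, 7 lay below 0 (median 0.05), unlike Eng itself. Id1, a target gene of BMP signalling, had a log2 fold change of 0.43 ± 0.21, and Smad5, which carries the BMP signal, of -0.08 ± 0.06. All had an adjusted p of at least 0.795 (edgeR).

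Of 12 genes of the junctions, 11 had values below 0 (median -0.09), led by Jam3, a junctional adhesion molecule, with 7.66 ± 1.76 CPM without and 5.82 ± 1.27 CPM with HK and a log2 fold change of -0.41 ± 0.14. Ctnnb1, which encodes beta-catenin, stayed at 242 ± 27.1 and 245 ± 21.1 CPM (0.02 ± 0.04). Of 10 tested genes of haemostasis, 7 lay below 0 (median -0.14), with Procr, the protein C receptor, at -0.35 ± 0.17 and Selp, or P-selectin, at 0.69 ± 0.48. In the other endothelial list, Clec14a, a lectin of the endothelial surface, had the lowest p, with 4.39 ± 0.775 CPM in untreated and 3.07 ± 1.34 CPM in HK-treated mice (-0.55 ± 0.17), and Rasip1, which regulates vessel lumen formation, had 0.19 ± 0.17. The capillary gene Cd300lg was at -0.25 ± 0.14. The arterial genes Efnb2 and Notch1 were at -0.34 ± 0.15 and 0.06 ± 0.17, the venous genes Ephb4 and Lrg1 at -0.17 ± 0.12 and 0.10 ± 0.17, and the lymphatic genes Prox1 and Reln at -0.30 ± 0.21 and 0.35 ± 0.23. Pdgfrb, the receptor that keeps pericytes on the vessel, was at 20.5 ± 5.26 and 15 ± 4.75 CPM (-0.45 ± 0.17), and Abcc9, a channel subunit of pericytes and muscle fibres, at 0.09 ± 0.07. Of 6 tested genes of sprouting and dividing cells, 6 lay below 0 (median -0.43), and Aplnr, the apelin receptor of growing vessels, had 3.51 ± 1.42 CPM without and 1.72 ± 1.32 CPM with HK (-1.11 ± 0.30). Each of these genes had an adjusted p of at least 0.795 (edgeR).

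Outside the vessels, the same rule named Cd163 for macrophages (log2 -0.40 ± 0.23), Pf4 for platelets (-0.38 ± 0.25), Hba-a1 for red cells (0.62 ± 0.28), Col3a1 for fibro-adipogenic progenitors (-0.75 ± 0.40), Pax7 for satellite cells (-0.22 ± 0.21) and Mbp for Schwann cells (0.37 ± 0.20). For adipocytes they were Cfd (0.41 ± 0.29) and Lep (-0.57 ± 0.75), and for fibres Myl2 (slow, -0.65 ± 0.26), Pvalb (fast, 0.18 ± 0.12), Mylpf (fast, -0.06 ± 0.07), Ckm (0.11 ± 0.07) and Mb (-0.23 ± 0.10).

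Sex went with a difference of similar size, and here 1 member passed the test. All 10 members had values below 0 for males against females in the fit that adjusted for batch and treatment, with a median of -0.24 on the log2 scale where all genes had -0.01, and this count of 10 held with DESeq2 size factors and with library size alone. Of the 10, 1 (Eng) was called lower and 0 higher, beside 7.33% of all genes called lower, 8.79% higher and 16.1% in either direction. At an unadjusted p under 0.05 the members lower in males were 3 (Eng, Kdr and Tek), beside 14.8% of all genes lower and 15.6% higher. Eng ranged from 10.9 to 52.0 CPM with a median of 28.5 in males and from 27.4 to 59.8 with a median of 36.5 in females. Its log2 fold change was -0.44 ± 0.14 (adjusted p = 0.0414, edgeR), the ranges overlapped, and 7 of 10 males lay below the median of the females. The call lay near the threshold. It was lost, with adjusted p-values of 0.0555 to 0.0765 (edgeR), without untreated male 2, 4 or 5, untreated female 2 or 3, HK male 1, 4 or 5, or HK female 1, 2 or 4. The log2 fold change stayed between -0.51 and -0.38 whichever mouse was left out. In batch 1 alone the log2 fold change of Eng was -0.59 (adjusted p = 0.153, edgeR) and in batch 2 alone -0.35 (adjusted p = 0.202).

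Kdr and Tek came next without passing. Kdr ranged from 13.3 to 53.1 CPM with a median of 24.5 in males and from 20.0 to 47.8 with a median of 38.4 in females, with a log2 fold change of -0.45 ± 0.19 (adjusted p = 0.102, edgeR). Only 1 of 10 males, untreated male 1, lay above the female median, and without that mouse the adjusted p of Kdr was 0.0405. Tek ranged from 7.10 to 20.0 CPM with a median of 13.4 in males and from 10.9 to 22.5 with a median of 18.4 in females (-0.37 ± 0.14, adjusted p = 0.0884, edgeR). It passed without untreated male 1, HK male 2 or HK female 1, with adjusted p-values of 0.0447 to 0.0490. Of the others, Cdh5 had a log2 fold change of -0.33 ± 0.17, Pecam1 of -0.26 ± 0.15, Vwf of -0.23 ± 0.18, Tie1 of -0.15 ± 0.13, Emcn of -0.15 ± 0.12, Flt1 of -0.10 ± 0.13 and Esam of -0.10 ± 0.15, with adjusted p-values of 0.197 to 0.719.

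Calls in the lists stand beside 7.33% of all genes called lower in males and 8.79% called higher. Other vascular genes also had values below 0 in males, with 28 of 29 other endothelial genes (median -0.32, 1 called lower), 9 of 9 capillary genes (-0.31, 2 called lower), 11 of 11 arterial genes (-0.21, 0 called), 4 of 6 venous genes (-0.18, 0 called), 3 of 5 lymphatic genes (-0.29, 1 called lower) and 10 of 11 genes of pericytes and smooth muscle (-0.26, 0 called). Those called were S1pr1, a sphingosine phosphate receptor of endothelium (28.4 ± 12 CPM in females, 20.1 ± 8.28 in males, log2 -0.47 ± 0.15), the fatty acid transporter Cd36 (-0.31 ± 0.09), the fatty acid binding protein Fabp4 (-0.42 ± 0.12) and Prox1, the master factor of lymphatic fate (-1.23 ± 0.21), which muscle fibres also express. Markers of adipocytes and of slow fibres also had medians below 0 in males (-1.32 and -1.16). The part of these cells in the values of Cd36, Fabp4 and Prox1 was not tested. Of the 10 genes of ligands, co-receptors and Flt4, 8 lay below 0 (-0.18). Angpt1, the ligand of TEK, was called lower (20.4 ± 4.16 CPM in females, 13.6 ± 1.57 in males, -0.59 ± 0.10, adjusted p = 0.000429, edgeR). Of 12 junction genes 10 lay below 0 (-0.20), and Ctnna1 (-0.26 ± 0.05), Magi1 (-0.52 ± 0.12) and Ctnnb1 (-0.13 ± 0.04) were called lower. In the endoglin and BMP list 9 of 15 lay below 0 (-0.14, 0 called) and in the haemostasis list 4 of 10 (0.16, 0 called). Of 6 genes of sprouting and dividing cells 3 lay above 0 (0.30), and Cdk1, which drives cell division, was called higher in males (1.77 ± 0.52).

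Calls of S1pr1 were lost without untreated male 4 or 5, untreated female 2 or 5, HK male 1 or 5, or HK female 4 (adjusted p = 0.0507 to 0.0632, edgeR). Those of Ctnnb1 and Cd36 were lost without untreated female 2 (0.0676 and 0.0512), that of Fabp4 without untreated male 2, untreated female 2 or HK female 4 (0.0522 to 0.0597), and that of Cdk1 without untreated female 3 or 5 or HK female 4 (0.0509 to 0.0584). Cdk1 had too few counts to be tested in another 5 of the 20 fits that left out 1 mouse. Angpt1, Ctnna1, Magi1 and Prox1 passed in all 20. Over the other alternatives, which include fits of 1 batch or 1 treatment group alone, the call was lost in 7 of 12 for Ctnnb1, 5 each for S1pr1 and Fabp4, 4 each for Cd36, Ctnna1 and Magi1, 2 for Prox1 and 1 for Angpt1. For Cdk1 it was lost in 4 of the 9 that gave a value, among them DESeq2 and limma voom.

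Markers of other cells moved with sex as well, again beside 7.33% of all genes called lower in males and 8.79% called higher. Slow fibre genes were below 0 in 7 of 7 (median -1.16, 6 called lower), adipocyte genes in 5 of 5 (-1.32, 4 called lower) and Schwann cell genes in 5 of 5 (-0.75, 3 called lower). Macrophage genes were above 0 in 9 of 10 (0.53, 1 called higher), platelet genes in 1 of 2 (0.20), red cell genes in 4 of 5 (0.07), genes of fibro-adipogenic progenitors in 3 of 7 (-0.02) and satellite cell genes in 3 of 4 (0.07), with 0 called in these last 4 lists. Fast fibre genes were above 0 in 4 of 7 (0.14, 2 called higher) and genes of all fibres in 4 of 6 (0.12, 1 called higher). Summed slow fibre markers ranged from 2509 to 4691 CPM in females and from 771 to 1977 CPM in 9 of 10 males, and were 6333 CPM in untreated male 3. Summed macrophage markers ranged from 37.9 to 194 CPM in females and from 22.3 to 307 CPM in males, and summed adipocyte markers from 7.98 to 141 and from 8.46 to 75.1 CPM. The part of fibre type and of other cells in the sex difference of the members was not tested.

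Batch moved the members unequally. Vwf (log2 0.75 ± 0.18, adjusted p = 0.00372), Eng (0.61 ± 0.15, adjusted p = 0.00336), Esam (0.49 ± 0.16, adjusted p = 0.0184) and Flt1 (0.38 ± 0.14, adjusted p = 0.0390) were called higher in batch 2, that is 4 of 10, where 18.2% of all genes were called higher, 19% lower and 37.1% in either direction (edgeR). With Pecam1 included, 5 members were higher at an unadjusted p under 0.05, beside 23.1% of all genes higher and 23.6% lower. Pecam1 was at 0.39 ± 0.15 without passing (adjusted p = 0.0543, edgeR). Kdr lay on the other side, with 36.2 ± 13.6 CPM in the 8 mice of batch 1 and 28.4 ± 8.77 CPM in the 12 of batch 2 (-0.35 ± 0.19, adjusted p = 0.151, edgeR). Tie1 (0.22 ± 0.13), Cdh5 (0.05 ± 0.17), Tek (0.02 ± 0.15) and Emcn (-0.05 ± 0.12) did not pass. What else differed between the sequencing experiments cannot be told apart from the batch. Both groups and both sexes were present in each batch.

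The balance of the receptors within a mouse does not depend on the scaling of the library, and so the ratio of RPKM was compared as well. Kdr to Flt1 ranged from 0.335 to 1.58. In batch 1 the mean log2 ratio was 0.12 ± 0.44 (SD, n = 8) and in batch 2 it was -0.54 ± 0.52 (SD, n = 12). HK-treated mice had a mean log2 ratio of -0.49 ± 0.64 and untreated mice of -0.06 ± 0.44 (SD, n = 10 each), with ranges of -1.58 to 0.39 and -0.81 to 0.66 that overlapped. The difference of -0.43 had p = 0.0365 in a two-sided exact permutation of the treatment among mice of the same sex and batch (14400 arrangements), and 0.0731 after Benjamini-Hochberg adjustment over the 4 ratio tests made. Leaving out 1 mouse at a time, the adjusted p of this permutation ran from 0.0319 to 0.244, the highest without HK male 4. It was under 0.05 only without HK male 2 (0.0478), HK female 2 (0.0431) or HK female 4 (0.0319). The difference was -0.39 in batch 1 and -0.46 in batch 2. Between males and females the log2 difference in Kdr to Flt1 was -0.37 (exact permutation p = 0.0703, adjusted p = 0.0937). Leaving out 1 mouse at a time, that adjusted p ran from 0.0225 to 0.291, the highest without HK male 4. It was under 0.05 only without untreated male 1 (0.04) or HK female 5 (0.0225).

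For Tek to Tie1, the log2 difference between HK-treated and untreated mice was -0.01 (exact permutation p = 0.893, adjusted p = 0.893). This ratio was lower in males, with mean log2 ratios of -0.42 ± 0.12 in males and -0.21 ± 0.23 in females (SD, n = 10 each), a difference of -0.21 (exact permutation p = 0.0121, adjusted p = 0.0483). The difference was -0.20 in batch 1 and -0.21 in batch 2. Ranges overlapped, at -0.60 to -0.23 in males and -0.53 to 0.19 in females. The adjusted p rose to between 0.0522 and 0.158 without any 1 of 12 mice, namely untreated male 2, 3, 4 or 5, untreated female 1, 2 or 3, HK male 1, 3, 4 or 5, or HK female 3.

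**Figure D4:**
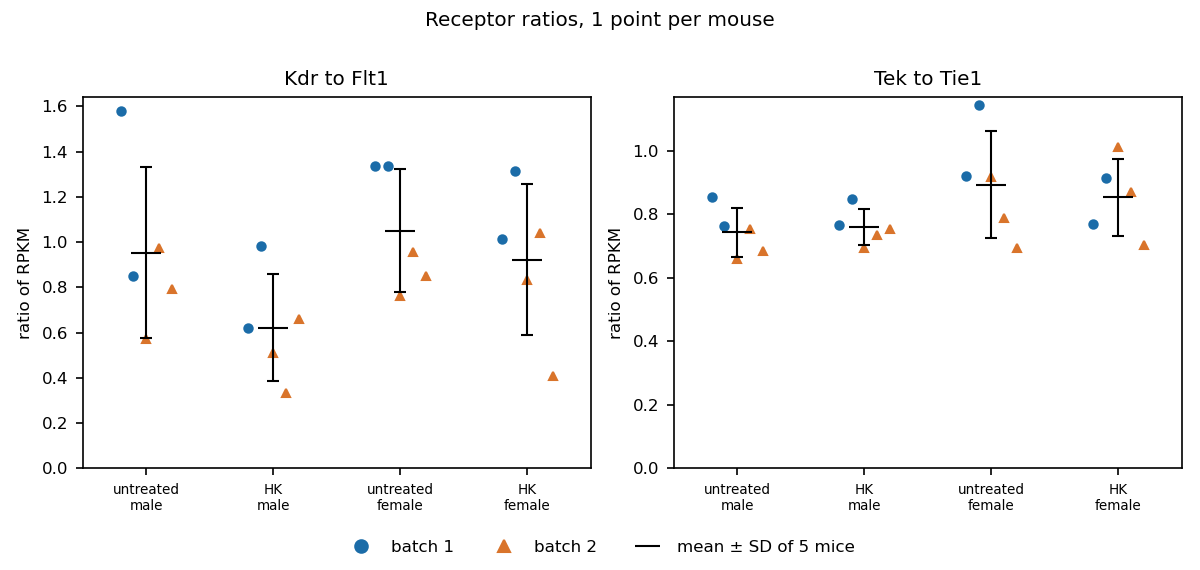
Ratio of RPKM of Kdr to Flt1 and of Tek to Tie1 (y axes, from 0) in the 4 groups of 5 mice, circles for batch 1 and triangles for batch 2, with the mean and SD in black. Kdr to Flt1 runs from 0.622 to 1.58 in batch 1 and from 0.335 to 1.04 in batch 2, and the females reach higher Tek to Tie1 ratios than the males.

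How closely the members followed each other was described by correlation over mice, which share the libraries they come from. After removal of batch and sex, the 45 pairs of members had a median Pearson r of 0.77 over 20 mice, from 0.30 for Flt1 with Emcn to 0.93 for Cdh5 with Tie1. The median r of all pairs of the 13626 genes was -0.0022, and 0.171% of those pairs reached the median of the members or more. Within batch 1 (8 mice) the median was 0.91 and all 45 pairs were positive. Within batch 2 (12 mice) it was 0.62 with 44 positive, and the pairs differed more. Without HK male 1, the mouse with the lowest sum, the median was 0.67 and all pairs were still positive.

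Among the 4 receptor kinases in batch 2, Flt1 and Kdr had the lowest r (0.17), while Flt1 had 0.54 to Tek and 0.63 to Tie1, and Kdr had 0.72 to Tek and 0.57 to Tie1. The r of Flt1 to Esam was 0.91. Between Tek, Tie1, Cdh5 and Pecam1 r lay from 0.83 to 0.88 there. Against the mean of the other 9 members over 20 mice, Pecam1 followed best (r = 0.97), then Cdh5 (0.95), Tie1 (0.92) and Tek (0.91), and Flt1 least (0.69).

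**Figure D5:**
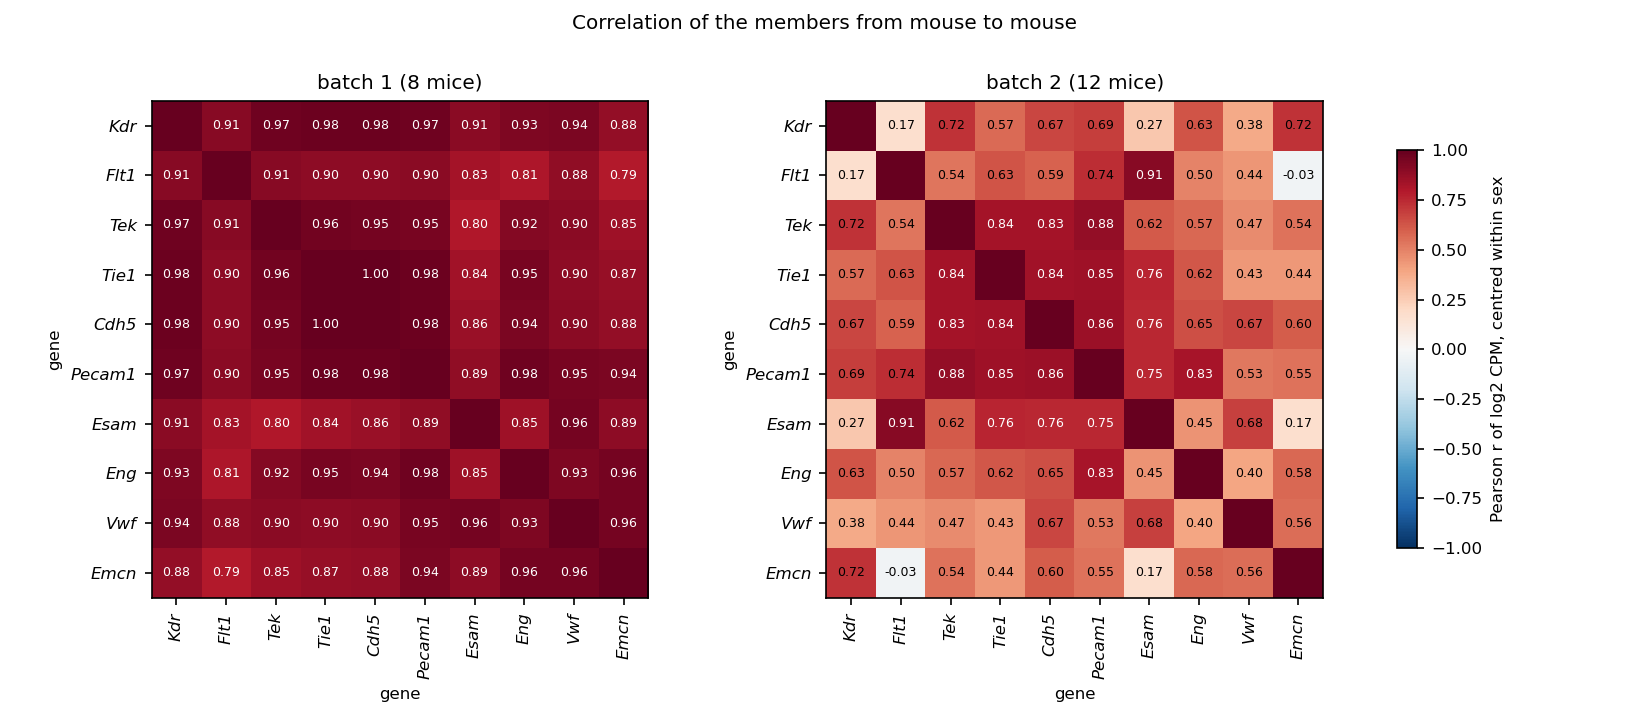
Pearson r between each pair of members, from log2 CPM centred within sex, in the 8 mice of batch 1 and the 12 mice of batch 2. Values in batch 1 lie between 0.79 and 0.998, and those in batch 2 between -0.03 and 0.91, with Flt1 and Kdr at 0.17.

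The 8 genes most like the mean of the members, out of 8875 other genes with at least 5 CPM, were Cav1 (r = 0.97 over 20 mice), Ehd2 (0.94), Pcdh1 (0.94), Rgs5 (0.94), Jcad (0.93), Adgrl4 (0.93), Mmrn2 (0.93) and Npr1 (0.93). Within batch 1 their r lay between 0.97 and 0.99, and within batch 2 between 0.83 and 0.95. Cav1 encodes the coat protein of caveolae, the membrane pits abundant in endothelium, Mmrn2 and Adgrl4 are endothelial genes, and Rgs5 marks pericytes. The most opposite genes were Chchd2 (-0.91), Snx3 (-0.86) and Cacybp (-0.86), chosen after their values were seen.

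Whole lists were compared in the same manner. The mean of the members had an r of 0.98 with that of 29 other endothelial genes, 0.97 with 12 junction genes, 0.96 with 11 genes of pericytes and smooth muscle, 0.93 with 11 arterial and 0.85 with 9 capillary genes. These values stayed within 0.86 to 0.99 inside each batch. Other vascular lists followed less closely, with 0.82 for the ligands, co-receptors and Flt4 (0.72 in batch 2), 0.79 for lymphatic (0.52), 0.68 for venous (0.38), 0.61 for haemostasis (0.40), 0.44 for sprouting (0.29) and 0.41 for endoglin and BMP genes (0.19). Lists of other cells reached similar values, with 0.69 for fibro-adipogenic progenitors (0.88 and 0.56 within batches 1 and 2), 0.69 for the 2 platelet genes (0.66 and 0.53) and 0.56 for satellite cells (0.82 and 0.69). With macrophage genes it was 0.44 over all mice, but 0.86 in batch 1 and 0.12 in batch 2. Slow fibre genes had 0.51 (0.64 and 0.62 within the batches), Schwann cell genes 0.38, adipocyte genes 0.31, genes of all fibres 0.08, red cell genes 0.01 and fast fibre genes -0.19. Of the measures of the libraries, the total count had an r of 0.02 with the mean of the members, the share of counts from the mitochondrial genome -0.38, and the dependence of counts on exon length (the slope of log2 CPM on log2 exon length) 0.54, with 0.86 in batch 1 and 0.28 in batch 2. That slope, after removal of batch and sex, ran from -0.0321 to 0.0237 in untreated and from -0.0563 to 0.0689 in HK-treated mice. Exons of 7 of the 10 members were longer than the median of 4329 bases over all genes tested. The part of this length dependence in the shared movement of the members was not tested.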

How the data were processed

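RNA of whole gastrocnemius from 20 mice was depleted of ribosomal RNA and sequenced by the authors, who aligned the reads with STAR 2.6.1c to GRCm38.p6 with GENCODE annotation and deposited 1 matrix of raw counts per gene, not normalized. The authors' own tests used DESeq2 1.28.1. Whether the counting used strand is not given in the sources used here. From these counts, genes with low counts were removed (filterByExpr, which left 13626 of 55401), libraries were scaled by TMM, and edgeR 4.0.16 in R 4.3.3 fitted batch, sex and treatment by quasi-likelihood, with Benjamini-Hochberg adjustment over all genes tested and a threshold of 0.05. Treatment by sex and by batch were fitted in models of their own. Groups came from the labels. CPM values are per TMM-scaled library, and RPKM uses the exon length of GENCODE M21, in which 55141 identifiers matched. log2 CPM for correlations had a prior count of 2 and was centred on batch and sex. Receptor ratios were tested by exact permutation (scipy 1.17.1). The fit was tested on simulated data. DESeq2 1.42.0 and limma 3.58.1 (voom) served as alternatives, with other scalings, filters, covariates and subsets.

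The members and lists were chosen with earlier results of these data known. Named were all 10 members, the gene of lowest p in either direction with HK in each of the other 22 lists (195 genes), the genes of vascular lists called in a comparison (at most 6 a list for sex), and the 8 genes most like the mean of the members. Cldn5 stood in both the other endothelial and the junction list, and Vcam1 in both the venous and the satellite cell list. Each library is 1 mouse. Counting errors cover counting alone. Promoter sequences are from RefSeq.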

Additional observations from a re-analysis of the deposited data

How the results depend on the processing

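With HK, no member was called under any alternative except without a filter on low counts. That fit called 502 of 30096 genes and 3 members (Pecam1, Kdr, Eng) where the filtered fit called 0. DESeq2 called 7 genes, and leaving out 1 mouse 0 to 1 genes and 0 members. Values near 0 changed sign. Flt1 was at 0.0845 in batch 2 alone and 0.00678 in males alone. Vwf was at 0.0025 with DESeq2 size factors, 0.0101 without a filter, 0.0400 without covariates, 0.169 in batch 2 and 0.00209 in males. Esam was at 0.00139 with size factors, 0.00879 without a filter, 0.000206 with DESeq2, 0.0311 with limma voom, 0.0101 without covariates, 0.0179 with the replicate block and 0.0983 in batch 2. Over the fits without 1 mouse, Flt1 ran from -0.0869 to 0.0534, Vwf from -0.0892 to 0.0861, Esam from -0.0740 to 0.0936, Notch1 from -0.0346 to 0.14, Vegfa from -0.0187 to 0.10 and the Tek to Tie1 difference from -0.0480 to 0.0454. That difference was 0.0803 in batch 2. Further signs changed in batch 1 alone for Rasip1 (-0.241), Smad5 (0.0145), Ctnnb1 (-0.0297), Selp (-0.208), Notch1 (-0.295), Lrg1 (-0.163), Reln (-0.0321) and Cfd (-0.412), in batch 2 alone for Lep (1.07), in females alone for Rasip1 (-0.00271), Vegfa (-0.148), Selp (-0.290), Notch1 (-0.0785), Prox1 (0.0755) and Pax7 (0.0254), in males alone for Lep (0.174), and with library size only for Vegfa (-0.00265) and Ctnnb1 (-0.0117). For sex, 2197 genes were called, 1827 to 2281 without 1 mouse, 1316 and 878 in batches 1 and 2 alone, and 489 and 651 in untreated and HK-treated mice alone. Library size only gave 825 higher and 1524 lower in place of 1198 and 999. With HK it gave 210 higher and 652 lower at an unadjusted p under 0.05 in place of 379 and 456, and 62.6% of all genes below 0 in place of 49.0%. Members called for sex were 1, but 6 without a filter, where 1401 of 30096 genes were called lower and 1383 higher. They were 0 without covariates, 0 in batch 1, 0 in batch 2, 0 in untreated and 0 in HK-treated mice alone, and 0 to 3 without 1 mouse. Without a filter the interactions called 314 genes (sex) and 225 (batch), and Esam by sex was at 0.0113. Without 1 mouse, Esam by sex ran from -0.17 to 0.19, Flt1 from -0.10 to 0.20 and Vwf from -0.15 to 0.24, and by batch Emcn from -0.13 to 0.20, Kdr from -0.0385 to 0.52, Pecam1 from -0.0883 to 0.33 and Tie1 from -0.0162 to 0.32. Where the subset is smaller, fewer mice entered the fit, and for the other changes the cause was not tested.

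Same-numbered untreated and HK-treated mice were not treated as pairs, since the labels give them no link but the number. Their deviations from the mean of their group and batch had correlations of -0.42 to 0.17. In batch 1 the deviations of mice 1 and 2 of a group mirror each other. These correlations therefore cannot decide whether such mice share more than a number. With these mice as blocks, 0 members were called with HK. In the comparison of the sexes, the block joined same-numbered males and females of the same treatment instead. The correlations above do not cover that pairing. With it, 3 members (Eng, Kdr, Tek) were called for sex in place of 1. In that fit for sex, 883 of 14340 genes were called lower and 1081 higher.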
